A study of Mus musculus with 6 samples.

Results

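The genes described here build the cell-to-cell junctions of the intercalated disc, the contact where the ends of neighbouring cardiomyocytes meet. They are *Gja1*, *Gja5* and *Gjc1* of the gap junctions, *Cdh2* and *Ctnna3* of the adherens junctions, and *Dsp*, *Pkp2*, *Jup*, *Dsg2* and *Dsc2* of the desmosomes. Every probe of the array that is not a control and carries one of these 10 symbols, of 27307 on the array, was taken, 29 probes of 56605 in all. RNA of 6 hearts was labelled with Cy3 and hybridised, each heart to its own Agilent 60-mer array. All were from male C57BL/6J *Clk4*-cKO mice, 3 given AAV NEXN-WT and 3 given AAV NEXN-S437E, and the replicates are separate animals. NEXN-WT is wild-type nexilin, an actin-binding protein of the Z-disc, and in NEXN-S437E a glutamate replaces the serine that the kinase CLK4 phosphorylates, as a mimic of that phosphorylation. The question for these genes was whether their RNA differed between hearts with the mimic and hearts with the wild-type protein.

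Both groups carried α-MHC-MerCreMer and *Clk4* fl/fl and had received tamoxifen as young adults. The deletion was therefore present in the controls too, and mice that kept the gene were not analysed here. The Cre is driven by a cardiomyocyte promoter, whereas the NEXN constructs, which also encode GFP, were carried by AAV9 under a CMV promoter, which is not restricted to cardiomyocytes. The RNA came from whole myocardium. The 10 ventricular cardiomyocyte markers examined, among them *Myh6*, *Tnnt2* and *Actn2*, were all well above background on all 6 arrays. In such bulk samples fewer cells of a type and less RNA per cell cannot be told apart.

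The intercalated disc holds the heart together mechanically and electrically. Gap junction channels, made of connexins, let ions pass from cell to cell, adherens junctions tie the ends of the actin filaments across the membrane, and desmosomes anchor the desmin filaments. Inherited defects of the desmosomal proteins are a known cause of arrhythmogenic cardiomyopathy.

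Which probes of these genes were detected differed with the record they were made to, and *Gja1*, which encodes Cx43, the main ventricular connexin, shows it best. Detection of a probe alone does not tell which transcripts the hearts held. It has 8 probes on chromosome 10 of mm9, forward strand. The 3 probes to its curated RefSeq transcript were well above background on all 6 arrays. The 5 probes to predicted RefSeq transcripts or cDNA records were well above background on none. Stretches of 30 bases are shown of the detected probe at the 5′ end and of the 5 undetected ones, since their letters show which stretches the probes share. They are given 5′ to 3′. The capitals mark the longest run that a probe shares with another of the set within the bases shown of both, and a shared run can go on beyond them.
A_55_P2741907, detected, chr10:56097212-56097271: tgaaactttaaacagacaggtctgagagcc
A_55_P2741895, not detected, chr10:56097108-56107358: gcttttacgagGAGGTGCCCAGACATGGgt
A_55_P2741897, not detected, chr10:56097389-56107356: gacttaggatactGAGGTGCCCAGACATGG
A_55_P2741899, not detected, chr10:56097423-56101558: taggatactGATCCTTCTGTTTCAGCGTgc
A_55_P2741901, not detected, chr10:56099183-56101556: aaccttgaacgGATCCTTCTGTTTCAGCGT
A_55_P2741911, not detected, chr10:56099134-56099193: gtccaaaagaccactgggcAACCTTGAACG

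A_55_P2741895 and A_55_P2741897 hold the same 17 bases at or near their 3′ ends, after different upstream sequence, so they read different upstream exons joined to the same downstream one. A_55_P2741899 and A_55_P2741901 share a run of 49 bases of another exon. A_55_P2741901 begins with the 11 bases that end A_55_P2741911, so this pair reads the same upstream exon. A run of 42 bases of A_55_P2741895 is also found in the window that RefSeq gives around the start of *Gja1* (GRCm38.p6). By their coordinates, A_55_P2741895, A_55_P2741897, A_55_P2741899 and A_55_P2741901 span 2374 to 10251 bases, so each crosses a joint between exons. None of these 4 probes was detected (0 of 4). A probe below background gives only an upper bound on its target, so their levels were not compared between the groups.

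Over all 29 probes the same division was seen. Of the 15 probes to curated RefSeq transcripts 13 passed the filter, which asks for detection in every heart of at least 1 group. None of the 4 probes to predicted RefSeq transcripts passed (0 of 4), and of the 10 to cDNA records 1 did, a *Jup* probe. The 14 probes that passed were above background on all 6 arrays and covered 9 of the 10 genes. Of the other 15 probes, 11 were above background on no array and 4 on some. The 4 were *Gja5* A_55_P2178748 and A_55_P2717381, *Cdh2* A_55_P2720238 and *Dsc2* A_52_P252931. *Dsc2*, which encodes desmocollin 2, the partner of desmoglein 2 in the cardiac desmosome, has 1 probe and did not pass. It was detected in 2 hearts with NEXN-WT and 1 with NEXN-S437E.

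**Figure D1:**
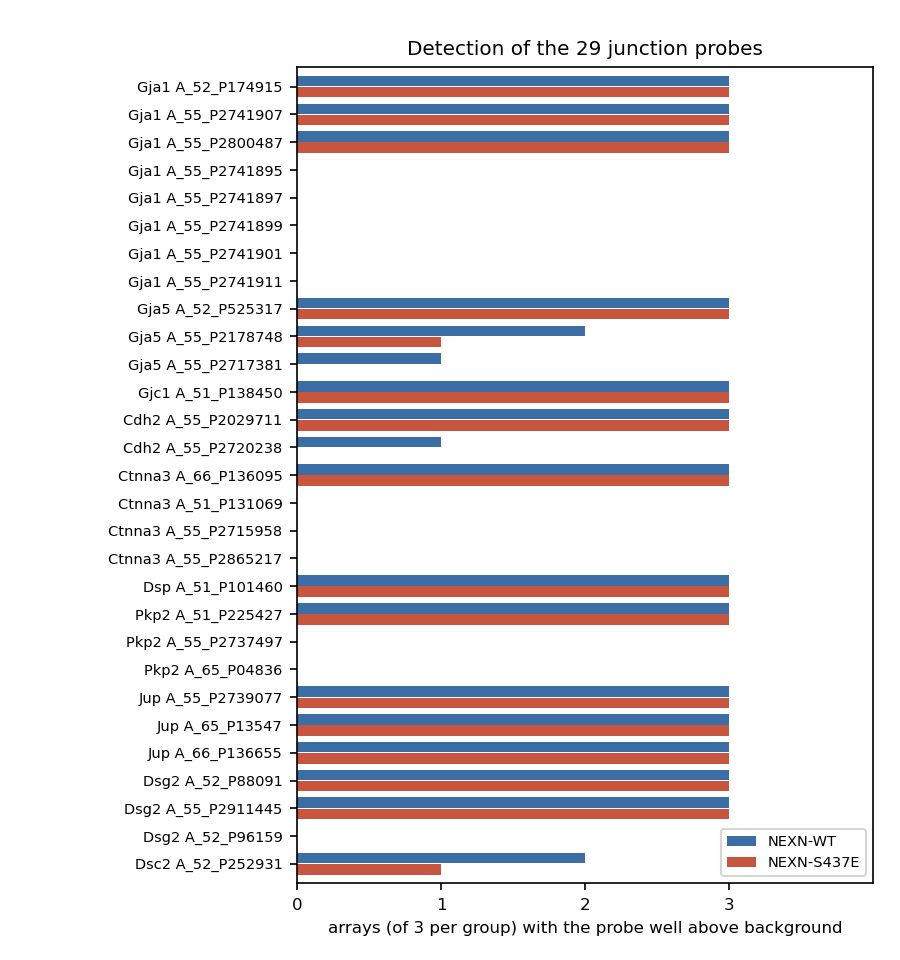
Number of arrays, of 3 per group, on which each of the 29 junction probes was well above background, with NEXN-WT in blue and NEXN-S437E in red. The 14 tested probes reach 3 in both groups, 11 have no bar, and the other 4 reach 1 or 2 in NEXN-WT and 0 or 1 in NEXN-S437E.

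No junction gene passed the test for a difference between the groups. Of the 14 tested probes, 0 had an adjusted p under 0.05 in limma, where 0.170% of all 22998 tested probes did. At an unadjusted p under 0.05 there were 2 in limma, both of *Dsg2*, against 17.1% of all tested probes, and 0 with the methods' t-test, against 13.6% of all probes, and 0 after adjustment too. None of the 14 had its groups apart (0 of 14), against 27.5% of all probes with a value on every array. Levels here are log2 signals minus the 75th percentile of the array, and differences are NEXN-S437E minus NEXN-WT on that scale. The difference was above 0 for 12 of the 14 probes, for 11 with normexp background correction, for 10 under quantile normalization and in the deposited normalized values, and for 8 when the percentile was taken over detected probes. Of all tested probes 60.3% had a difference above 0, and 64.1%, 53.2%, 53.2% and 46.3% in those 4 settings. The median difference was 0.18 for the 14 probes and 0.08 for all tested probes. With the percentile over detected probes these medians were 0.06 and −0.03, so the sign of a small difference can change with the processing.

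**Figure D2:**
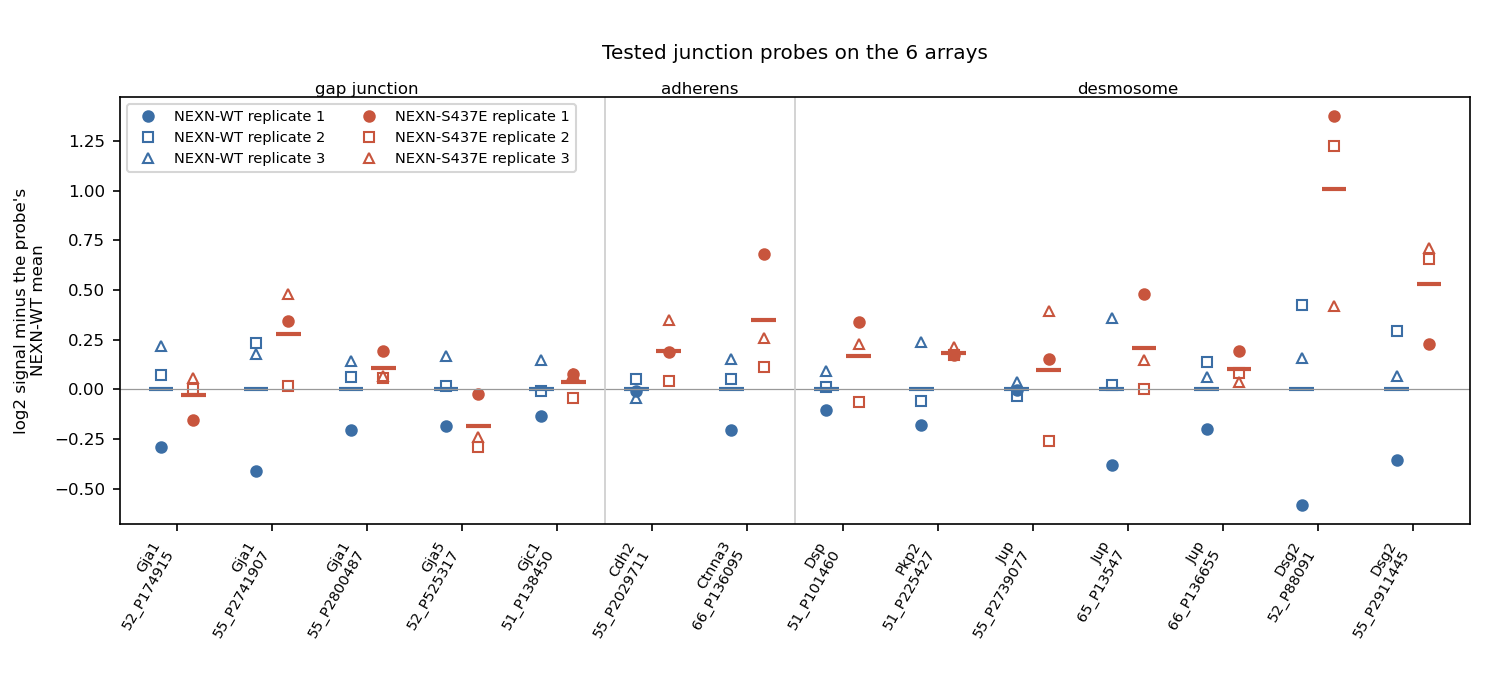
Log2 signal of the 14 tested junction probes on each array, minus the probe's own NEXN-WT mean, with bars at the group means (n = 3 each). Points of both groups overlap for every probe, the *Dsg2* probes at the right have means 1.01 and 0.53 above NEXN-WT, and NEXN-WT replicate 1 (filled blue) is the lowest array for 11 of the 14.

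The differences of the connexins were small and within the spread of the replicates. The *Gja1* probe with the highest signal, A_52_P174915 at chr10:56109814-56109873, had levels of 0.94, 1.31 and 1.45 with NEXN-WT and of 1.08, 1.24 and 1.29 with NEXN-S437E. The NEXN-S437E hearts lay inside the range of the NEXN-WT hearts. The difference was −0.03 (SE 0.17, adjusted p = 0.937 from limma), and its 95% interval ran from 0.741-fold to 1.29-fold. It was positive when NEXN-WT replicate 2 or 3 or NEXN-S437E replicate 1 was left out. The probe at the 5′ end, A_55_P2741907, whose sequence is given above, had levels of 0.07, 0.72 and 0.66 against 0.83, 0.50 and 0.96. Again the groups overlapped, with a difference of 0.28 (SE 0.22, adjusted p = 0.514 from limma) that was 0.08 without NEXN-WT replicate 1. A_55_P2800487, further along the transcript, gave 0.39, 0.65 and 0.73 against 0.78, 0.65 and 0.66, a difference of 0.10 (SE 0.15) that was 0.0033 without NEXN-WT replicate 1. All 3 intervals lay within a 2-fold change in either direction and overlapped each other.

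*Gja5* encodes Cx40, which is found in atrial muscle, the conduction system and arterial endothelium rather than in working ventricle. Its tested probe, A_52_P525317 at chr3:96857349-96857408, had levels of 1.71, 1.91 and 2.06 with NEXN-WT and of 1.87, 1.61 and 1.66 with NEXN-S437E. The lowest values of the 6 were those of NEXN-S437E replicates 2 and 3, while replicate 1 lay inside the NEXN-WT range. The difference was −0.18 (SE 0.16, adjusted p = 0.554 from limma; interval 0.682-fold to 1.14-fold). It was below 0 under all 18 alternatives, from −0.30 to −0.02. Its unadjusted p in limma was under 0.05 with normexp background correction and with array weights, as for 17.4% and 22.8% of all tested probes in those settings. The value nearest 0, with the slide row as a block, rests on NEXN-S437E replicate 1 alone, the only array of its group in the slide row of the NEXN-WT arrays. Another *Gja5* probe, A_55_P2717381, to another curated transcript, was above background on 1 NEXN-WT array only.

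Markers of the cells known for Cx40 did not move one way. Of the atrial list 5 of 8 genes were tested, 2 with a positive and 3 with a negative difference, and the log2 of its summed level was 8.66 to 8.86 with NEXN-WT and 7.27 to 7.71 with NEXN-S437E. *Nppa*, which encodes atrial natriuretic peptide and is also a marker of ventricular stress, fell by 1.40 (adjusted p = 0.0268 from limma) and carried nearly all of that summed level, at 8.61 to 8.82 against 7.14 to 7.60. *Bmp10*, a defining atrial gene, was above background on no array, and *Myl7* on 4 at most. The arterial endothelial list had 4 higher and 4 lower of 8 tested, with a median of 0.03 and summed levels of 4.83 to 4.93 against 4.70 to 4.86. The conduction system list had 3 higher and 1 lower of 4 tested, and summed levels of 2.73 to 3.12 against 3.00 to 3.27, with *Isl1*, *Cntn2* and *Cacna1d* above background on no array. Their part in the *Gja5* values was not tested.

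*Gjc1* encodes Cx45, the connexin of nodal cells and of early heart muscle. Its probe, A_51_P138450 at chr11:102661053-102661112, reverse strand, had levels of 1.94, 2.06 and 2.22 against 2.15, 2.03 and 2.15, the narrowest spread of the 3 connexins in the NEXN-S437E group (SD 0.07). The difference of 0.04 (SE 0.14, adjusted p = 0.902 from limma) had an interval of 0.816-fold to 1.29-fold. Its sign turned under quantile normalization, normexp, the percentile over detected probes, the deposited values and without NEXN-WT replicate 1. For *Gja1*, by its brightest probe, and *Gjc1*, 7.4% and 9.4% of all tested probes had a smaller absolute difference.

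The adherens genes both had positive differences that did not pass the test. *Cdh2* encodes N-cadherin, the cadherin that links the membranes of neighbouring cardiomyocytes. Its probe A_55_P2029711 had levels of 4.30, 4.36 and 4.26 with NEXN-WT and of 4.49, 4.35 and 4.65 with NEXN-S437E. NEXN-S437E replicate 2 lay within the NEXN-WT range and the other 2 above it. The difference of 0.19 (SE 0.15, adjusted p = 0.501 from limma; interval 0.907-fold to 1.44-fold) was 0.04 under quantile normalization and in the deposited values.

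*Ctnna3* encodes αT-catenin, which binds both the cadherin complex and plakophilin 2 at mixed junctions of the disc. It has 4 probes on chromosome 10, and 1 was detected. That probe is shown because it is the only one of the 4 whose values can be compared.
Ctnna3 A_66_P136095, chr10:64138650-64297370: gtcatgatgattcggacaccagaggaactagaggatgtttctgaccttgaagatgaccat

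Its 60 bases lie within a span of 158721 bases of mm9, and 1 of the 3 forward reading frames runs through them without a stop. The levels were −2.74, −2.48 and −2.38 with NEXN-WT and −1.86, −2.42 and −2.28 with NEXN-S437E. NEXN-S437E replicate 1 was the highest of the 6, and replicate 2 was inside the NEXN-WT range. The difference of 0.35 (SE 0.19, adjusted p = 0.376 from limma; interval 0.937-fold to 1.73-fold) was 0.18 without NEXN-S437E replicate 1. The arrays lay in 2 rows of the slide. Row 1 held all 3 arrays of NEXN-WT with replicate 1 of NEXN-S437E, and within it the difference was 0.68, against 0.18 for the 2 arrays of row 2. Row 2 held no NEXN-WT array, so a fit with the row as a block compares NEXN-S437E replicate 1 alone with the NEXN-WT arrays, and that 1 array is assumed to vary like the others. The adjusted p of this probe was then 0.405 in limma. The other 3 *Ctnna3* probes, to a predicted transcript and to cDNA records, were above background on no array.

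Among the desmosomal genes, the RNA of those for cytoplasmic plaque proteins differed little. *Dsp* encodes desmoplakin, which ties the plaque to desmin. Its probe A_51_P101460, at chr13:38290121-38290180, had levels of 5.53, 5.65 and 5.73 with NEXN-WT and of 5.98, 5.57 and 5.87 with NEXN-S437E. The groups overlapped through NEXN-S437E replicate 2, and the difference of 0.17 (SE 0.16, adjusted p = 0.595 from limma; interval 0.869-fold to 1.45-fold) was −0.04 under quantile normalization and in the deposited values, and 0.08 without NEXN-S437E replicate 1. *Pkp2* encodes plakophilin 2, a plaque protein that also organises gap junctions. Its tested probe, A_51_P225427 at chr16:16272648-16272707, gave 4.54, 4.66 and 4.95 against 4.89, 4.89 and 4.93. The NEXN-S437E hearts were close together (SD 0.02) and lay inside the range of the NEXN-WT hearts (SD 0.21), with a difference of 0.18 (SE 0.16, adjusted p = 0.546 from limma; interval 0.885-fold to 1.46-fold). Without NEXN-WT replicate 1 and in the deposited values the *Pkp2* difference was at most 0.10.

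*Jup* encodes plakoglobin, which is shared by desmosomes and adherens junctions. It has 3 probes on chromosome 11, reverse strand, and all 3 were tested. The brightest, A_66_P136655, had levels of 1.09, 1.43 and 1.36 with NEXN-WT and of 1.49, 1.38 and 1.33 with NEXN-S437E. The differences were 0.10 (SE 0.15) for that probe, 0.21 (SE 0.22) for A_65_P13547 and 0.10 (SE 0.19) for A_55_P2739077, with adjusted p values in limma of 0.734, 0.636 and 0.804. The groups overlapped for all 3 probes, and the 95% intervals lay between 0.793-fold and 1.65-fold. A_66_P136655 and A_55_P2739077 turned below 0 with the percentile over detected probes. Without NEXN-WT replicate 1 the differences of A_66_P136655 and A_65_P13547 were 0.0047 and 0.02.

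*Dsg2*, which encodes desmoglein 2, the desmosomal cadherin of cardiomyocytes, had the largest differences of the 14 probes. The probe A_52_P88091, at chr18:20737628-20737687, had levels of −3.80, −2.80 and −3.06 with NEXN-WT and of −1.84, −1.99 and −2.80 with NEXN-S437E. Replicates 1 and 2 of NEXN-S437E stood above all NEXN-WT hearts, while replicate 3 and NEXN-WT replicate 2 had the same value to 2 decimals. The means were −3.22 ± 0.52 and −2.21 ± 0.51 (SD, n = 3 each), a 2.01-fold difference with a 95% interval of 1.19-fold to 3.38-fold. The log2 difference of 1.01 (SE 0.33) had a p of 0.0148 in limma, or 0.209 once adjusted. This probe is dim, as the lowest value of any probe above background was −3.96 to −3.03 on the 6 arrays.

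Another *Dsg2* probe at the 3′ side, A_55_P2911445 at chr18:20762750-20762809, was brighter and gave a smaller difference. Its levels were 0.59, 1.24 and 1.01 with NEXN-WT and 1.18, 1.60 and 1.66 with NEXN-S437E. NEXN-S437E replicates 2 and 3 were above every NEXN-WT heart, and replicate 1 was below NEXN-WT replicate 2. The means were 0.95 ± 0.33 and 1.48 ± 0.26 (SD, n = 3 each). The difference of 0.53 (SE 0.22) had a p of 0.0392 in limma, or 0.270 once adjusted, with an interval of 1.02-fold to 2.04-fold. The other *Dsg2* probe, to a cDNA record, was above background on no array.

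The order of the NEXN-S437E hearts was not the same at both *Dsg2* probes, since replicate 1 was highest at A_52_P88091 and lowest at A_55_P2911445. Within slide row 1 the differences were 1.37 and 0.23, and for the arrays of row 2 they were 0.82 and 0.68. Both stayed above 0 under every alternative run for a single probe, from 0.45 to 1.38 and from 0.23 to 0.68, with adjusted p values in limma never below 0.187 and 0.136, and the mean of both probes was 0.77. The 1.38 and the 0.23 came with the slide row as a block and rest on NEXN-S437E replicate 1 alone. The difference of A_52_P88091 was 0.45 with normexp and 0.57 with array weights, and without NEXN-WT replicate 1 the differences of the 2 probes were 0.72 and 0.35. In the deposited normalized values they were 0.94 and 0.50. Of all tested probes, 97.4% had a smaller absolute difference than A_52_P88091 and 86.6% a smaller one than A_55_P2911445.

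The named genes whose centred values over the 6 arrays lay closest to those of A_52_P88091 were *2210407C18Rik*, *Jph1* and *Apex2*, with mean absolute differences of 0.159, 0.166 and 0.167 on the log2 scale. *Jph1* encodes a junctophilin, a protein that holds the sarcoplasmic reticulum at the plasma membrane, and *Apex2* encodes a DNA repair nuclease.

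*Dsc2* is given by its levels only. They were −5.10, −3.15 and −3.13 with NEXN-WT and −2.89, −2.88 and −3.81 with NEXN-S437E, and on the arrays that did not detect it they are not measured levels.

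**Figure D3:**
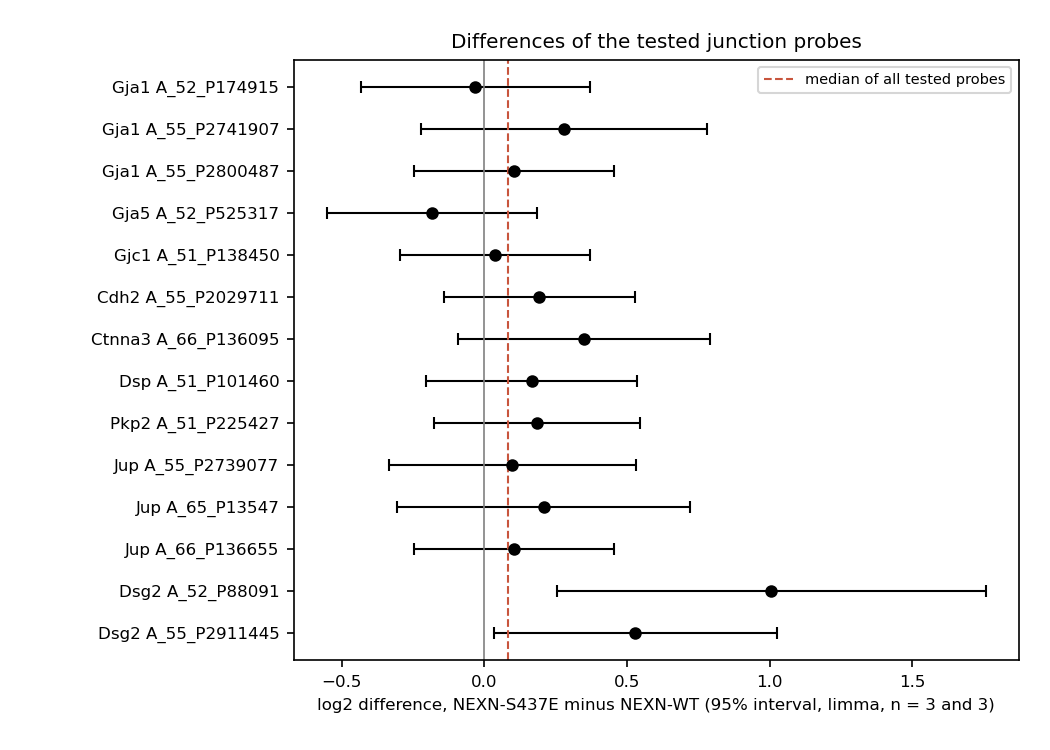
Log2 difference, NEXN-S437E minus NEXN-WT, of each tested junction probe with its 95% interval from limma (n = 3 and 3), beside the median of all tested probes at 0.08 (dashed). The intervals of the *Dsg2* probes, 1.19-fold to 3.38-fold and 1.02-fold to 2.04-fold, lie above 0 before adjustment, and the other 12 include 0.

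The median SD of the junction probes was 0.18 in each group, where all tested probes had 0.24 with NEXN-WT and 0.16 with NEXN-S437E. Of the 14 junction probes 10 had the larger SD with NEXN-WT. NEXN-WT replicate 1 stood apart from the other arrays. Over the 14 junction probes its mean absolute difference from the other NEXN-WT arrays was 0.33 and 0.38, where those 2 differed from each other by 0.15, and from the NEXN-S437E arrays it was 0.40 to 0.54. It had the lowest level of its group at 12 of the 14 probes. Without it, 11 of the 14 differences were above 0, the median was 0.08, and 1 probe, of *Dsg2*, had an unadjusted p under 0.05 in limma, against 13.6% of all tested probes.

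**Figure D4:**
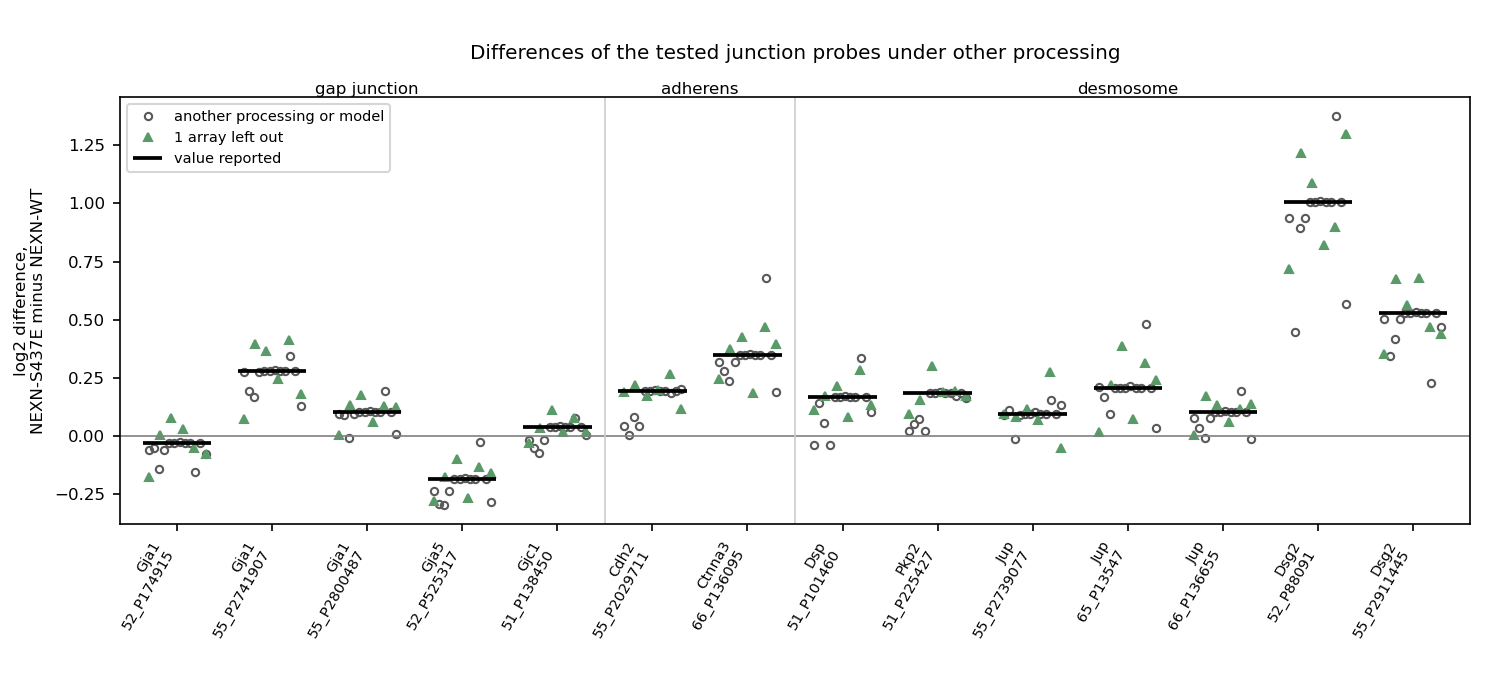
Log2 difference, NEXN-S437E minus NEXN-WT, of each tested junction probe as reported (black bar), under another processing or model (circles) and with 1 array left out (triangles). The *Dsg2* probes stay above 0 throughout, from 0.45 to 1.38 and from 0.23 to 0.68, and *Gja5* stays below 0, while the signs of *Gja1* A_52_P174915, *Gja1* A_55_P2800487, *Gjc1*, *Dsp*, *Jup* A_55_P2739077 and *Jup* A_66_P136655 vary.

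RNA of partner genes at the disc and of other members of the junction families was read from 5 lists, with 1 probe per gene, the one of highest mean. No gene of the 5 lists had an adjusted p under 0.05 in limma (0 of 44 tested), 9 had an unadjusted p under 0.05, and the methods' t-test left 0 after adjustment. Of all 13747 tested genes 0.211% had an adjusted and 17.9% an unadjusted p under 0.05 in limma, and their median difference was 0.07. Of the 18 adhesion partners, which include the other catenins, vinculin and the nectins, 12 had a positive and 6 a negative difference (median 0.11), which became 8 and 10 (median −0.03) under quantile normalization and 9 and 9 with the percentile over detected probes. *Lmo7*, an actin-binding adhesion protein, was at 0.54, *Tmem43*, a nuclear envelope protein whose mutation causes arrhythmogenic cardiomyopathy, at −0.39 and *Nectin3*, a cell adhesion molecule, at −0.38, with adjusted p values of 0.191, 0.244 and 0.290 from limma. *Nectin3* was at −0.24 without NEXN-WT replicate 2. β-catenin (*Ctnnb1*), the homologue of plakoglobin, was at −0.06.

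Of the 13 genes of excitability and junction scaffolds, 10 had a positive and 3 a negative difference (median 0.20), and 9 and 4 under quantile normalization. For 1 of the 3 the sign was not measured, since no NEXN-S437E array showed it above background. *Tjp1*, the Cx43 partner ZO-1, was at 0.13 (SE 0.20). *Scn4b*, an ion channel subunit, had levels of −0.71, 1.27 and 0.66 with NEXN-WT and of 2.20, 1.70 and 1.77 with NEXN-S437E, a difference of 1.49 (adjusted p = 0.192 from limma) without overlap, and of 0.93 without NEXN-WT replicate 1. *Fgf13*, an intracellular member of the FGF family, was at 0.84 (adjusted p = 0.134 from limma). *Fgf13* passed with array weights (adjusted p = 0.0323 from limma).

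The remaining members of the junction families were mostly not detected. Of the 20 other connexins and pannexins 4 were tested, and 14 were above background on no array at any probe. *Panx1*, which forms large-pore membrane channels, had levels of 3.36, 2.22 and 1.99 with NEXN-WT and of 0.86, 0.83 and 0.79 with NEXN-S437E. All NEXN-S437E hearts were below all NEXN-WT hearts, and the difference was −1.70 (SE 0.33, adjusted p = 0.104 from limma). It was −1.28 without NEXN-WT replicate 1, with an adjusted p of 0.0198 in limma, and −1.43 with array weights (adjusted p = 0.0127 from limma). Of the 12 epidermal desmosome genes 4 were tested, all with positive differences (median 0.34), led by the plakin *Ppl* at 0.81 (adjusted p = 0.200 from limma; 0.51 without NEXN-WT replicate 1), and 7 were above background on no array. Of the 9 other cadherins and catenins 5 were tested, 4 with positive differences (2 under quantile normalization and with normexp, 1 with array weights), and *Ctnnal1*, an α-catenin relative, was at 0.53 (adjusted p = 0.241 from limma).

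**Figure D5:**
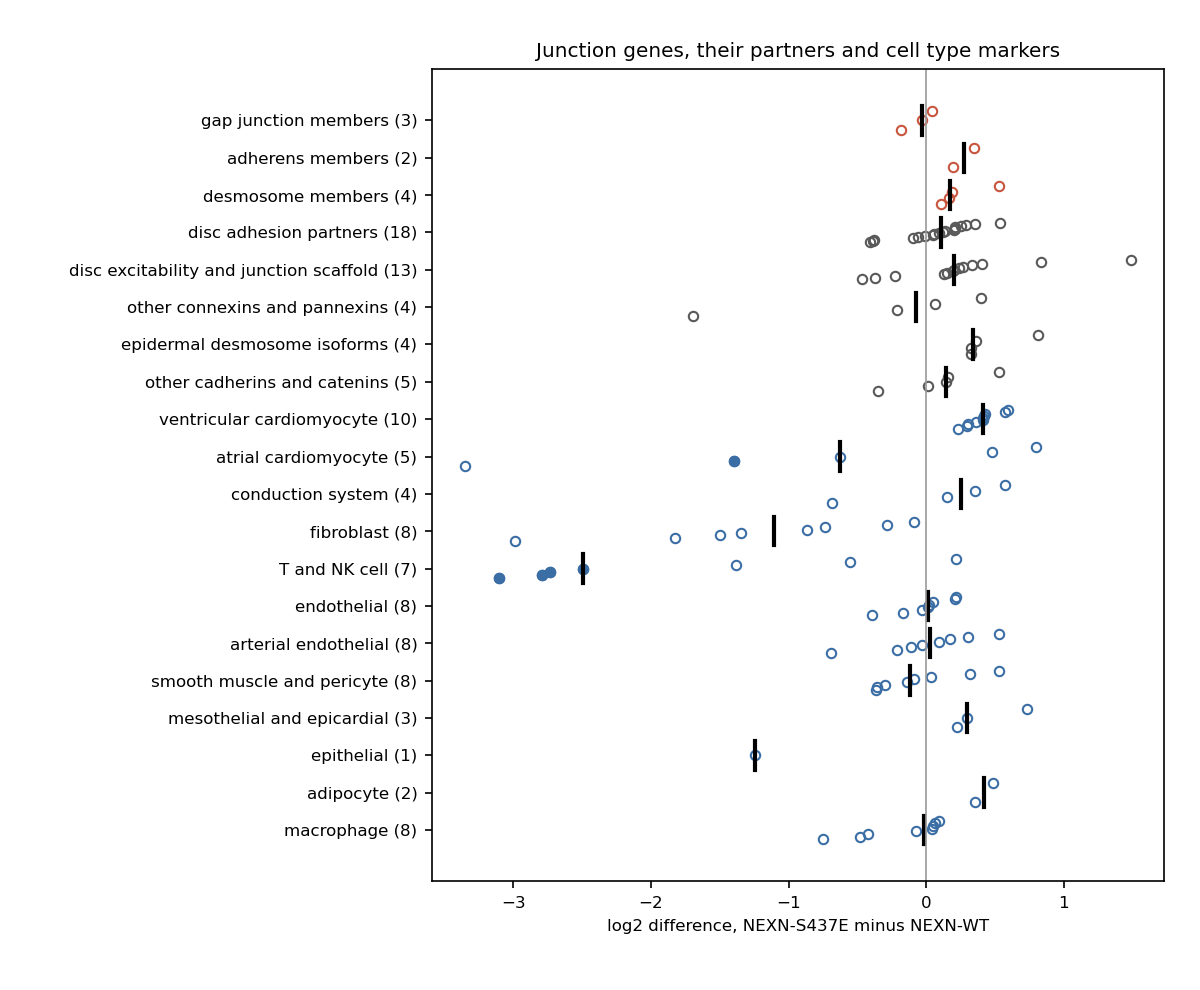
Log2 difference, NEXN-S437E minus NEXN-WT, of every tested gene of each list (number in brackets), with a black bar at the list's median; red circles are the junction genes, grey their partners and blue the cell type markers. Filled circles had an adjusted p under 0.05 in limma, and these are 4 T and NK cell genes and the atrial list's *Nppa*. Among the 4, *Cd3g* is drawn at its measured difference, which rests on NEXN-S437E values below background.

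Marker lists of the cell types of the heart were read beside these values. The endothelial list had 5 higher and 3 lower, the smooth muscle and pericyte list 3 and 5, and the macrophage list 4 and 4. Under quantile normalization these became 3 and 5, 2 and 6, and 0 and 8, and with array weights 1 and 7, 2 and 6, and 4 and 4. The macrophage list was also 0 and 8 with normexp, with the percentile over detected probes and in the deposited values. All 10 ventricular cardiomyocyte markers had positive differences (median 0.41), though 7 of 10 under quantile normalization and in the deposited values (median 0.09 and 0.10), and in limma 4 had an unadjusted p under 0.05 and none (0 of 10) an adjusted p under 0.05. The log2 of their summed level was 11.38 to 11.77 with NEXN-WT and 12.01 to 12.03 with NEXN-S437E. All 8 fibroblast markers had negative differences (median −1.10), 6 with an unadjusted p under 0.05 and 0 of 8 with an adjusted p under 0.05 in limma, and summed levels of 9.34 to 10.04 against 8.85 to 8.96. Of the T and NK cell markers 6 of 7 were lower, with summed levels of 2.62 to 3.52 against 1.13 to 1.35, and *Ccl5*, *Cd3d* and *Nkg7* fell with adjusted p values of 0.0131, 0.0222 and 0.0462 in limma. *Cd3g*, which no NEXN-S437E array showed above background, passed the filter through NEXN-WT alone, the group where it was high. Set to the lowest value above background on each of those arrays, *Cd3g* was lower in NEXN-S437E by 2.19-fold. An undetected probe can read above that value, as *Dsc2* did on a NEXN-S437E array, so this is not a strict limit. The adjusted p of *Cd3g*, 0.00103 in limma, rests on the measured values, those of NEXN-S437E being below background, and not on that lowest value. The median of the list was −2.49, and −0.32 with normexp. With *Cd3g* at that lowest value the median was −1.39, the difference of *Gzmb*, which 1 of the 3 NEXN-S437E arrays showed above background. Their part in the junction gene values was not tested. Of the 10 epithelial markers, whose cells also hold desmosomes, 6 were above background on no array, among them *Epcam*, *Cdh1*, *Krt5* and *Krt14*, and *Krt18* alone was tested, with summed levels of −1.34 to −0.01 against −2.68 to −1.36.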

How the data were processed

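RNA of 3 *Clk4*-cKO hearts with AAV NEXN-WT and 3 with AAV NEXN-S437E was measured on Agilent SurePrint G3 Mouse arrays, grouped by sample title. The spot intensities were deposited by the authors as written by Feature Extraction 10.7.1.1, background-subtracted and not normalized between arrays. The authors also deposited normalized log2 values per probe, whose columns share 1 distribution. The normalization software is not given in the sources used here. Coordinates are mm9, read from the files. No genome of that build was used, so probes were not placed in exons by annotation. Of the 29 accessions of the probes, 16 were found in the RefSeq table used for names.

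Outlier and control spots were left out, log2 intensity minus the array's 75th percentile was averaged per probe, and the 22998 probes detected in every heart of at least 1 group were tested with limma 3.58.1 (R 4.3.3, with data.table at version 1.17.8), with Benjamini-Hochberg adjustment over all of them. The test was checked on simulated data. There, 43 of 100 probes changed by 1 on the log2 scale had an adjusted p under 0.05 in limma, and 92 of 100 changed by 2. Between 41.9% and 47.8% of spots were well above background and no spot was saturated (0). The number of arrays limits the precision. Sequences were read from the deposited table with pandas 2.3.3 and drawn figures use matplotlib 3.10.9, numpy 2.4.6 and Python 3.11.15.

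Members and lists were chosen with earlier results of these data known. All 10 member genes are named, with every tested probe. Of each partner list the genes with an unadjusted p under 0.05 are named (at most 4), of each cell type list those past the adjusted p, and the 3 profiles nearest the member of largest difference. Other genes are named as examples of a list, and some list genes are not reported here. *Afdn* is *Mllt4* on the array, and *Muc16* has no probe there. Alternatives were quantile normalization, normexp (offset 50), the percentile over detected probes, the deposited log2 values, 2 filters, outlier spots kept, the methods' t-test, replicate and slide row blocks, an intensity trend, array weights and each array left out.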

Additional observations from a re-analysis of the deposited data

How the results depend on the processing

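No alternative gave a member probe with an adjusted p under 0.05 (0 in each, limma or the methods' t-test). At an unadjusted p under 0.05 the count of member probes was 2, and it was 1 with the percentile over detected probes, 4 without the filter on dim probes, 0 with the methods' t-test and 1 to 2 with each array left out. The shares of all probes were 17.1%, 16.3%, 12.6%, 13.6% and 10.5% to 21.8%. Without the filter the 4 were *Dsg2* A_52_P88091 and the *Gja1* probes A_55_P2741899, A_55_P2741901 and A_55_P2741911, which were above background on no array. The 2 were not the *Dsg2* pair with normexp (*Gja5* and *Dsg2* A_52_P88091) and with array weights (*Gja5* and *Dsg2* A_55_P2911445), where the shares of all probes were 17.4% and 22.8%. With the slide row as a block they were *Dsg2* A_52_P88091 and *Ctnna3*, but that fit sets NEXN-S437E replicate 1 alone against NEXN-WT, with its spread assumed from the other arrays. Among the partner genes 0 had an adjusted p under 0.05, against 2 with array weights (*Panx1* and *Fgf13*) and 0 to 1 with each array left out (*Panx1*, without NEXN-WT replicate 1). Over all tested probes 39 passed, against 695 with array weights, 130 without NEXN-WT replicate 1, 7 without the filter and 0 with the methods' t-test.

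Signs turned for differences near 0, and the cause was not tested. *Gjc1* was −0.016 under quantile normalization, −0.017 in the deposited values, −0.052 with normexp, −0.073 with the percentile over detected probes and −0.028 to 0.11 with each array left out. *Dsp* was −0.040 under quantile normalization and −0.039 in the deposited values. With the percentile over detected probes *Gja1* A_55_P2800487 was −0.0066, *Jup* A_55_P2739077 −0.014 and *Jup* A_66_P136655 −0.0068. *Jup* A_66_P136655 was −0.014 with array weights, and *Jup* A_55_P2739077 was −0.052 to 0.28 with each array left out. *Gja1* A_52_P174915 was −0.18 to 0.078 with each array left out, and the mean of the 3 *Gja1* probes was 0.12.

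The replicate numbers did not pair the arrays, as deviations from the group means of same-numbered arrays correlated at −0.15, −0.028 and −0.18, and 0 of the 6 arrays correlated best with its own number. With the replicate number as a block the member counts were 0 and 2, the partner count was 0 and all calls were 51, so the block changed no call on a member. Each group has 3 arrays, and signal over background limits the 15 member probes that did not pass the filter.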
